A study of Homo sapiens with 12 samples.

Results

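HMC-1.3 clone 2, a human mast cell line with the KIT change D816V alone, was compared with HMC-1.1, a sister line with the KIT change V560G alone, by RNA-seq. The comparison took the 3 libraries titled as clone 2 and the 3 titled as HMC-1.1, 6 of the 12 libraries of the series, and covered all genes that passed a filter on low counts. Both lines go back to HMC-1, a line grown from a mast cell leukaemia, and both were kept in IMDM medium with fetal bovine serum, and the labels name no treatment. HMC-1.3 was made with CRISPR/Cas9 from HMC-1.2, a line that carries V560G and D816V together. Clone 2 is 1 clone, taken through puromycin selection and limiting dilution, so what belongs to the KIT change and what belongs to this clone cannot be told apart here. The 3 wells of a line were plated together, and nothing states that they were separate cultures, so the p-values measure only the spread between these libraries, which may be technical. Clone 2 replicate 1 carries the word resent in its label, as do 2 libraries of the lines not compared here. KIT genotypes were taken from the study and were not read from sequence.

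KIT is the receptor tyrosine kinase for stem cell factor, on which mast cells depend to survive, grow and mature. Once active it signals through the RAS-ERK, PI3K-AKT and JAK-STAT5 routes. V560G lies in the juxtamembrane segment, which holds the resting kinase in check, and D816V lies in the activation loop of the kinase domain, and D816V is the change found in most adults with systemic mastocytosis. Mast cells store histamine, proteases and proteoglycans in granules and release them when IgE bound to its receptor is cross-linked.

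The positions of both changes are shown because they are what sets the lines apart by design. Both lie on the plus strand of chromosome 4 in the coding sequence of KIT (GRCh38, transcript ENST00000288135.6), codon 560 in exon 11 at chr4:54727432-54727462 and codon 816 in exon 17 at chr4:54733140-54733170. The sequences are the reference, and capitals mark the codon that each change alters.
V560G site: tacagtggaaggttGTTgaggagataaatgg
D816V site: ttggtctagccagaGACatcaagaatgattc

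The HMC-1.1 libraries held 36120882 to 38098951 expected counts and the clone 2 libraries 34656242 to 43181402. Of 58381 genes in the deposited table, 15944 were tested with edgeR's quasi-likelihood test, fitted to all 12 libraries with Benjamini-Hochberg adjustment over all genes tested, and this test gave every adjusted p below. A gene was called, and is said to have risen or fallen, where the adjusted p was under 0.05 and the fold over 1.5. Levels are the authors' FPKM, fragments scaled to gene length and library total, given per library in replicate order or as mean ± SD (n = 3). Differences are log2 of clone 2 over HMC-1.1 with their SE. In bulk libraries, fewer cells of a kind and less RNA per cell cannot be told apart.

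Clone 2 differed from HMC-1.1 in 1306 genes, 8.19% of those tested. Of these, 485 were higher in clone 2 (3.04%) and 821 lower (5.15%), while the median difference over all genes was -0.0082. Without the fold limit, 5745 genes passed. In 7533 genes (47.2%) the CPM of the 3 libraries of 1 line all lay above those of the other. Most called differences were modest: 218 rises and 424 falls lay between 1.5 and 2 fold, and 38 rises and 35 falls exceeded 8 fold. Protein-coding genes gave 443 rises and 597 falls, and lncRNAs gave 20 rises and 163 falls, 10.4% of the 1754 lncRNAs tested. The other lines place these counts. HMC-1.2, the line from which clone 2 was edited, differed from HMC-1.1 in 2803 genes and from clone 2 in 2630, and clone 1, the other HMC-1.3 clone, differed from HMC-1.1 in 161 genes and from clone 2 in 2013. By the count of called genes, clone 1 stood nearer to HMC-1.1 than to the clone made in the same way, and clone 1 levels are given beside the clone 2 values below where the lines' order matters.

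Among the largest rises, KIF17, a kinesin motor, was at 0.43, 0.2 and 0.36 FPKM in HMC-1.1 and 25.9, 25.6 and 26.4 FPKM in clone 2 (log2 difference 6.54 ± 0.11, adjusted p = 1e-16). All clone 2 libraries lay far above the HMC-1.1 libraries, and KIF17 was at 0.32 ± 0.085 FPKM in clone 1 and 30.5 ± 1.4 FPKM in HMC-1.2. LINC02864, a long non-coding RNA on chromosome 18, was at 0.13, 0.33 and 0.15 FPKM in HMC-1.1 and 13.2, 14.9 and 13.8 FPKM in clone 2 (log2 difference 5.96, edgeR's adjusted p = 2.7e-13). OVAAL, another long non-coding RNA, rose from 3.1, 2.76 and 2.44 to 33.8, 32 and 31.4 FPKM, 11.8-fold. By the choice of genes, these levels are separate in every library. GLI2, a transcription factor of Hedgehog signalling, stood at 0.43, 0.61 and 0.5 FPKM in HMC-1.1 and 3.43, 3.88 and 3.33 FPKM in clone 2, a difference of 2.75 ± 0.078. BHLHE41, a transcriptional repressor, and GIPC3, a PDZ domain protein, rose by 2.97 and 2.71, and VGF, the precursor of secreted neuropeptides, rose 5.64-fold from 9.61 ± 0.55 to 54.1 ± 3.6 FPKM. All 7 genes were chosen with the lines apart in CPM in every library, so their lack of overlap follows from the choice.

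The largest falls began with KLHL9, an adaptor of the CUL3 ubiquitin ligase on chromosome 9p. KLHL9 held 207, 218 and 244 counts in HMC-1.1 and 0, 0 and 2 in clone 2, at least 77.1-fold lower against a floor of 3 counts per library. KLHL9 reads were all but lost in clone 2, whereas clone 1 was at 1.11 ± 0.18 FPKM beside 1.09 ± 0.085 FPKM in HMC-1.1. FCER1G, the signalling gamma chain of the IgE receptor, was at 92, 95.5 and 95.8 FPKM in HMC-1.1 and 9.81, 10.7 and 10.3 FPKM in clone 2 (log2 difference -3.19 ± 0.084, adjusted p = 4.4e-14), with 94.4 ± 3.3 FPKM in clone 1. TEX19, a gene of germ cells and placenta, was at 18, 16.6 and 17.5 FPKM in HMC-1.1 and 2.21, 1.68 and 1.87 FPKM in clone 2 (log2 difference -3.17). The genes of this paragraph were chosen with the lines apart in every library. PTPRE, a receptor-type tyrosine phosphatase, fell by 3.00 on the log2 scale, MYOM1, a sarcomere protein encoded on 18p, by 3.26, and the long non-coding RNAs TMEM132D-AS1 and LINC03040 by 2.86 and 2.75. The hair keratins KRT81 and KRT86 (-3.73 and -3.999) overlap and resemble each other, and NPIPB10P (-7.15) belongs to a family of near-identical copies, so their counts may be split between copies. The strand setting of the counting was not given in the sources used here, so reads of an antisense RNA such as TMEM132D-AS1 may include those of its partner.

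**Figure D1:**
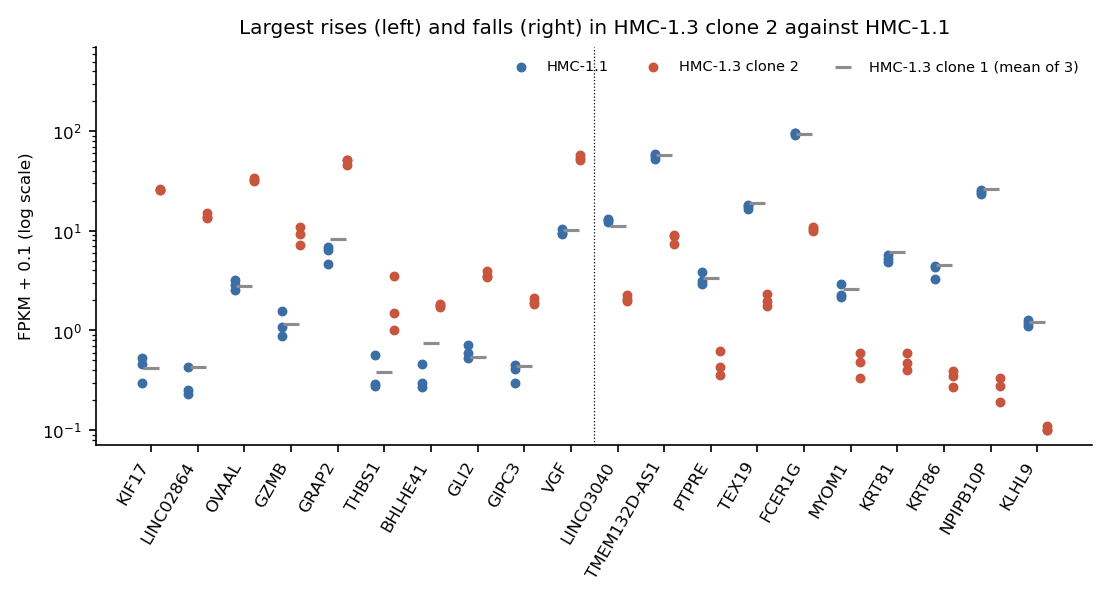
FPKM + 0.1 on a log axis in each of the 3 HMC-1.1 and 3 clone 2 libraries for the genes with the largest rises (left of the dotted line) and falls (right) in clone 2, with a grey dash at the clone 1 mean of 3. The genes were chosen with the lines apart in every library, and THBS1 spreads most in clone 2.

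Genes at a mean of 100 CPM or more give the changes that involve the most RNA. IGFBP2, which binds insulin-like growth factors, was at 195, 196 and 189 FPKM in HMC-1.1 and 694, 697 and 639 FPKM in clone 2 (log2 difference 1.83 ± 0.038, adjusted p = 2e-15). ANXA1, the phospholipid-binding anti-inflammatory protein annexin A1, was at 17.6, 16.3 and 18.4 FPKM in HMC-1.1 and 92.1, 92.6 and 84.1 FPKM in clone 2 (log2 difference 2.39 ± 0.069, adjusted p = 9.9e-14). PLA2G2A, a secreted phospholipase that frees fatty acids from phospholipids, was at 69.6, 68.6 and 75.5 FPKM in HMC-1.1 and 209.7, 212 and 202 FPKM in clone 2, a difference of 1.57 ± 0.043. By the choice of genes, all clone 2 libraries lay above all HMC-1.1 libraries for these 3 secreted or membrane-binding proteins. Clone 1 stood at 197 ± 6.2, 21.4 ± 2.1 and 64.6 ± 1 FPKM. The intermediate filament VIM, the cytokine LIF, the receptor GPRC5C and the translation factor EIF4G3 followed, with differences of 1.40, 1.13, 0.98 and 0.97. The falls at this level were smaller: RAB31 -1.23, TRANK1 -1.21, ARHGEF2 -1.21, RCOR1 -1.204, MYL12A -1.19, SH3PXD2B -1.19, YES1 -1.15 and SIGLEC8 -1.12. RAB31, a vesicle-sorting GTPase, MYL12A, a myosin light chain, and YES1, a SRC family kinase, lie on 18p, and ARHGEF2, an activator of RHOA, lies in a run of falling genes on 1q described below.

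KIT itself did not pass the test, at 419, 418 and 405 FPKM in HMC-1.1 and 399.8, 402 and 412 FPKM in clone 2 (log2 difference -0.016 ± 0.03, adjusted p = 0.71), with overlapping values and 450.4 ± 21 FPKM in clone 1. Its ligand KITLG held 0 to 3 counts in all 6 libraries and was not tested. Of 35 tested genes of KIT and its adaptors, kinases and phosphatases, 1 was called, with a median difference of 0.025 beside -0.0082 over all genes. That gene was DOK2, a docking protein that restrains RAS signalling, at 13.9 ± 0.16 FPKM in HMC-1.1 and 22.7 ± 1.4 FPKM in clone 2, and it was not called when the test was made against the 1.5-fold limit itself. Genes set by ERK activity gave 5 rises and 0 falls among 20 (median 0.11), 25% called beside 8.19% of all tested genes. CCND1, the cyclin that drives cells through G1, was at 1.29, 1.54 and 1.21 FPKM in HMC-1.1 and 4.04, 4.75 and 5.07 FPKM in clone 2 (log2 difference 1.86, edgeR's adjusted p = 9.3e-11), and LIF was at 24.9, 30.1 and 29.9 FPKM in HMC-1.1 and 63.5, 63.2 and 64.6 FPKM in clone 2 (log2 difference 1.13, edgeR's adjusted p = 4.4e-12). Neither gene overlapped between the lines, and LIF was among the genes chosen with the lines apart. SPRY2, a feedback inhibitor of ERK signalling, rose by 1.23, the ephrin receptor EPHA4 by 1.79 and the RAS activator RASGRP1 by 1.49, while DUSP genes of the same list, the phosphatases that switch ERK off, were not called.

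Of 18 STAT5 targets, 2 rose and 1 fell (median 0.14), which is 16.7% called beside 8.19% of all tested genes. SOCS3, an inhibitor of JAK signalling, was at 4.48, 3.78 and 5.03 FPKM in HMC-1.1 and 9.64, 10.6 and 8.99 FPKM in clone 2 (log2 difference 1.17 ± 0.1, adjusted p = 8.1e-08), with every clone 2 library above every HMC-1.1 library. The survival kinase PIM2 rose by 0.63, a call lost when HMC-1.1 replicate 2 was left out, and the repressor BCL6 fell by 0.86. Neither was called in the test against the 1.5-fold limit, nor was BCL6 in limma on log2(FPKM + 1) or log2(FPKM + 0.1). The targets of FOXO factors, which are active when AKT signalling is low, gave 4 falls and 0 rises among 22 (median -0.18, 18.2% called), namely BCL6, TXNIP (-0.78), KLF2 (-0.78) and PIK3IP1 (-0.69). Immediate early genes of the AP-1 and EGR families gave 2 rises and 2 falls among 29, EGR1 being at 19, 20.5 and 19.6 FPKM in HMC-1.1 and 33.2, 34.4 and 32.7 FPKM in clone 2, 1.72-fold higher. Their median was -0.048, with 13.8% called. In the NF-kappaB list 2 of 21 rose, BIRC3 and CCL3, and 1 fell, TNF (14.3% called).

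The share called in the survival and cell cycle lists ran from 0% to 10%, beside 8.19% of all tested genes. The 4 tested anti-apoptotic members of the BCL2 family had no call and a median of 0.16. BCL2, which blocks mitochondrial apoptosis and lies on 18q, was at 5.89, 5.78 and 5.11 FPKM in HMC-1.1 and 7.41, 7.81 and 8.48 FPKM in clone 2 (log2 difference 0.49, edgeR's adjusted p = 1.4e-06), apart in every library but under the fold limit, and MCL1 differed by 0.26. Among 12 pro-apoptotic members BBC3 alone was called, falling by 0.61, and BCL2L11 differed by -0.12. Of 30 p53 targets 1 rose and 2 fell (median -0.0041). CCND1 was the single call among 21 genes of G1 control. Among 42 replication and mitosis genes, CDK1, the kinase that starts mitosis, fell from 109.7, 110.1 and 106 to 60.6, 56.2 and 57.6 FPKM (1.83-fold, edgeR's adjusted p = 4.4e-12) and TYMS, which makes thymidylate and lies on 18p, fell by 0.87, with a median of 0.04 for the list.

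The identity of both lines as mast cells was checked on 12 defining markers. These summed to 2122 to 2253 FPKM in HMC-1.1 and 2089 to 2143 FPKM in clone 2. Of the 12, 1 rose and 1 fell, or 16.7% beside 8.19% of all tested genes (median -0.058). By adjusted p alone 3 were higher and 5 lower, beside 2955 higher and 2790 lower of all 15944 genes tested. The rise was FCER1A, the alpha chain of the IgE receptor, and the fall HPGDS, both described below. GATA2, a mast cell transcription factor, was at 228, 246 and 237 FPKM in HMC-1.1 and 229.9, 247 and 244 FPKM in clone 2 with overlapping values, and MITF, which acts with it, at 21.3 ± 0.28 FPKM in HMC-1.1 and 21.5 ± 0.59 FPKM in clone 2. HDC, the enzyme that makes histamine, was at 814, 904 and 839 FPKM in HMC-1.1 and 934, 867 and 884 FPKM in clone 2 (log2 difference 0.082 ± 0.03, adjusted p = 0.044), overlapping and not called. Of 17 granule genes 3 rose and none fell (median 0.041, 17.6% called), the rises being GZMB, DDC and TPSG1. GZMB, the serine protease granzyme B, was at 0.78, 0.99 and 1.47 FPKM in HMC-1.1 and 9.18, 10.7 and 7.19 FPKM in clone 2 (log2 difference 3.20 ± 0.23, adjusted p = 1.3e-08), with 1.07 ± 0.083 FPKM in clone 1. GZMB was among the genes chosen with the lines apart. DDC, which decarboxylates aromatic amino acids, and the tryptase gene TPSG1 rose by 1.38 and 1.299 from means of 0.607 and 0.177 FPKM, and TPSG1 was called in neither the test against the 1.5-fold limit nor limma on log2(FPKM + 1).

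The IgE receptor differed by subunit. Of 27 genes of the receptor and of exocytosis, 3 rose and 1 fell (median 0.052), 14.8% called beside 8.19% of all tested genes. FCER1A, the alpha chain that binds IgE, was at 0.17, 0.12 and 0.14 FPKM in HMC-1.1 and 1.18, 0.94 and 1.15 FPKM in clone 2 (log2 difference 2.89 ± 0.34, adjusted p = 4.4e-06), low in both lines and apart in every library. FCER1G, the gamma chain given above, went the other way and was 9.13-fold lower. GRAP2, an adaptor between LAT and SLP-76, was at 6.71, 4.58 and 6.36 FPKM in HMC-1.1 and 51.7, 51.2 and 46.1 FPKM in clone 2 (log2 difference 3.09 ± 0.047, adjusted p = 3e-17), with 8.12 ± 1.1 FPKM in clone 1. GRAP2 was also among the genes chosen with the lines apart. RAB27B, a GTPase that brings granules to the membrane and lies on 18q, rose by 1.33.

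Of 38 surface markers used to describe neoplastic mast cells, 4 rose and 4 fell (median 0.11), 21.1% called beside 8.19% of all tested genes. SIGLEC8, an inhibitory receptor of mast cells and eosinophils, was at 47.3, 49.1 and 47.6 FPKM in HMC-1.1 and 20.9, 21.4 and 21.3 FPKM in clone 2 (log2 difference -1.12 ± 0.035, adjusted p = 2.3e-13). CD2, an adhesion receptor used in the diagnosis of mastocytosis, was at 3.4, 3.4 and 3.39 FPKM in HMC-1.1 and 0.59, 0.97 and 1.09 FPKM in clone 2 (log2 difference -1.999 ± 0.18, adjusted p = 1.3e-07). Both were lower in every clone 2 library, and SIGLEC8 was among the genes chosen with the lines apart. Against clone 1, SIGLEC8 in clone 2 differed by -1.03. IL2RA, or CD25, another diagnostic marker, was at 36.1, 35 and 39.7 FPKM in HMC-1.1 and 41.5, 43.4 and 37.7 FPKM in clone 2 (log2 difference 0.17 ± 0.046, adjusted p = 0.0098), with overlapping values and no call. IL2RB, the beta chain of the interleukin-2 receptor, was at 15.3, 14 and 14.1 FPKM in HMC-1.1 and 3.45, 3.59 and 3.39 FPKM in clone 2 (log2 difference -1.98 ± 0.054, adjusted p = 5.6e-14), lower in every clone 2 library. CD69, CEACAM1, TNFRSF4 and ENPP3 rose by 0.63, 0.95, 0.89 and 0.72, and FCGR2B, an inhibitory receptor for IgG, fell by 0.89. ENPP3 libraries overlapped at under 1 FPKM and its call was lost under 7 of 16 other settings, and that of CD69 under 4. CD44 differed by 0.25 without a call, and TNFRSF8, or CD30, held 1 to 7 counts per library and was not tested.

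**Figure D2:**
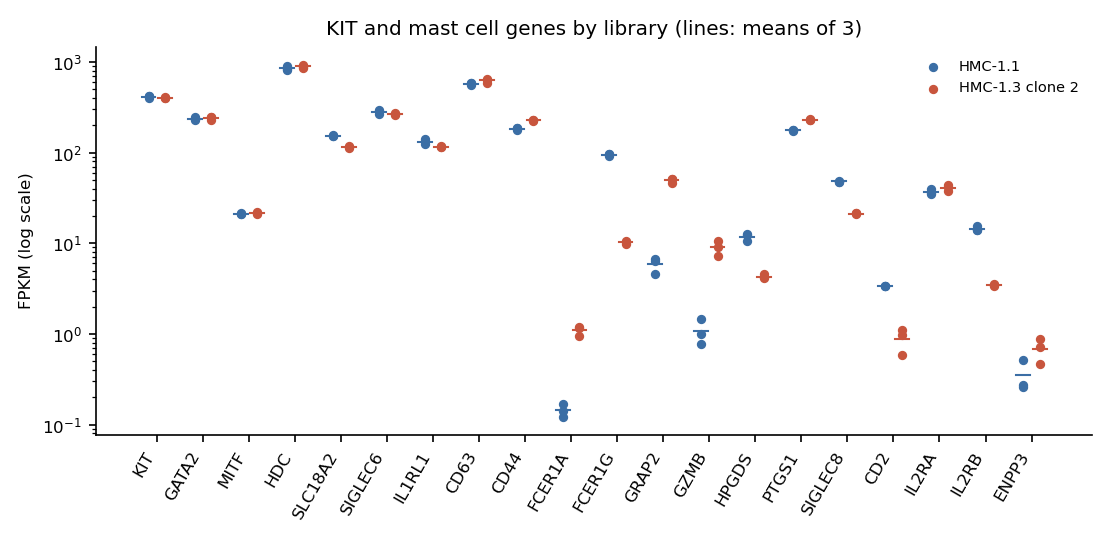
FPKM on a log axis in each of the 3 HMC-1.1 and 3 clone 2 libraries for KIT, mast cell and surface marker genes, with horizontal lines at the means of 3. KIT, GATA2, MITF and HDC lie level between the lines, and FCER1G, HPGDS, SIGLEC8, CD2 and IL2RB lie lower in every clone 2 library. FCER1G and SIGLEC8 were among the genes chosen with the lines apart.

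Inhibitory receptors restrain the activation of mast cells and other leukocytes. Of 20 Siglecs and other inhibitory receptors 5 fell and 1 rose (median -0.16), 30% called beside 8.19% of all tested genes. The falls were CD72 (-1.67), LAIR1 (-1.47), MILR1 (-1.16), SIGLEC8 and FCGR2B and the rise CEACAM1. Among 16 checkpoint and costimulatory genes, CD80, a ligand of CD28 and CTLA4, was at 0.95, 0.97 and 1.35 FPKM in HMC-1.1 and 3.84, 4.27 and 4.96 FPKM in clone 2 (log2 difference 1.88 ± 0.16, adjusted p = 6.7e-08), and LGALS9, the galectin that binds TIM-3, was at 234, 228 and 229.7 FPKM in HMC-1.1 and 110.3, 107 and 100.4 FPKM in clone 2 (log2 difference -1.11 ± 0.034, adjusted p = 2e-13). The lines did not overlap in either gene. CD274, or PD-L1, rose by 0.96, and IDO1, which breaks down tryptophan, held 1, 0 and 0 counts in HMC-1.1 and 31, 36 and 34 in clone 2 (edgeR's adjusted p = 2.9e-05).

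In eicosanoid metabolism 2 of 20 genes rose and 2 fell (median 0.17), 20% called beside 8.19% of all tested genes. HPGDS, the prostaglandin D2 synthase of mast cells, was at 12.4, 10.6 and 12.6 FPKM in HMC-1.1 and 4.12, 4.52 and 4.21 FPKM in clone 2 (log2 difference -1.55 ± 0.14, adjusted p = 2e-07), apart in every library. LTC4S, the leukotriene C4 synthase, fell by 1.40, and the receptors PTGER4, for prostaglandin E2, and CYSLTR2, for leukotrienes, rose by 0.79 and 1.68.

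Of 31 tested cytokines and chemokines 7 rose and 4 fell (median 0.30), 35.5% called beside 8.19% of all tested genes. CCL2, which attracts monocytes, was at 29.9, 31.6 and 33.4 FPKM in HMC-1.1 and 67.2, 64.5 and 55.1 FPKM in clone 2 (log2 difference 0.98 ± 0.072, adjusted p = 1.4e-08), higher in all clone 2 libraries. TNF held 65, 64 and 62 counts in HMC-1.1 and 17, 1 and 2 in clone 2 (log2 difference -3.28 ± 0.39, adjusted p = 5e-06). The first clone 2 library, the one labelled resent, carried most of the remaining TNF counts. CXCL10, a chemokine induced by interferon, held 1, 1 and 2 counts in HMC-1.1 and 12, 26 and 36 in clone 2 (edgeR's adjusted p = 0.00023). IL15, IL6, CCL3 and CXCL16 also rose, by 1.16, 2.19, 1.65 and 0.72, and VEGFA, LTB and CCL4L2 fell by 0.68, 0.69 and 1.36. CXCL16 was not called without HMC-1.1 replicate 2, nor was CCL4L2 without clone 2 replicate 2 or 3, and CCL3 and CCL4L2 have close paralogs that may share reads.

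Receptors for such signals changed in both directions. Of 34 cytokine receptors 4 rose and 3 fell (median 0.15, 20.6% called): IL10RA (1.23), IL12RB1 (1.28), OSMR (1.41) and LIFR (1.53), the latter the receptor of LIF, were higher, and IL2RB, IL5RA (-0.88) and IL21R (-0.72) lower. The neighbours LIFR and OSMR had a median of 2.44 in HMC-1.2 less HMC-1.1. IL12RB1 was not called without HMC-1.1 replicate 2 (1.1997, adjusted p = 0.054 in edgeR) or clone 2 replicate 2 (1.09, adjusted p = 0.076 in edgeR). The TNF receptor family gave 3 rises and 2 falls among 16 (31.2% called). Chemotactic and inflammatory G protein-coupled receptors gave 4 falls and 1 rise among 23 (median -0.19, 21.7% called), where 8.19% of all tested genes were called. CXCR2, a receptor of interleukin-8, was at 1.72, 1.72 and 1 FPKM in HMC-1.1 and 0.09, 0.04 and 0.09 FPKM in clone 2 (log2 difference -3.83 ± 0.26, adjusted p = 5e-09), and GPR35 and the adenosine receptor ADORA3 fell by 1.29 and 0.74. The complement receptor C5AR1 rose by 1.51, while CXCR4 differed by 0.22 (edgeR's adjusted p = 0.58).

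Interferon-stimulated genes restrain virus growth in cells that sense interferon. Of 49 tested members 10 rose and 0 fell, with a median of 0.28 beside -0.0082 over all genes. By adjusted p alone 33 were higher and 3 lower, beside 2955 higher and 2790 lower of all 15944 genes tested. The summed FPKM of the list ran from 6761 to 7227 in HMC-1.1 and from 6315 to 6798 in clone 2, so the summed level was not higher in clone 2. The share called was 20.4% beside 8.19% of all tested genes. IFI27, a mitochondrial interferon-induced protein, was at 7.15, 5.5 and 7.28 FPKM in HMC-1.1 and 15.7, 20.4 and 15.5 FPKM in clone 2 (log2 difference 1.304 ± 0.15, adjusted p = 2.6e-06). IFI6, a close relative, was at 39.8, 32.7 and 38.1 FPKM in HMC-1.1 and 65.2, 69.8 and 64.8 FPKM in clone 2 (log2 difference 0.86 ± 0.067, adjusted p = 2.8e-08). Each was apart in every library. At lower levels MX2 rose by 2.12, the guanylate-binding proteins GBP4, GBP2 and GBP1 by 1.97, 1.95 and 0.62, IFI44L and IFI44 by 1.90 and 1.88, OAS2 by 1.78 and EPSTI1 by 1.08. The call of GBP1 was lost without clone 2 replicate 2, at a difference of 0.56. IFITM1 went the other way without a call (-0.23). The median of the list in clone 1 less HMC-1.1 was -0.016. MHC class I presentation gave 1 rise, HLA-F, among 18 (median 0.29), and class II gave CD74 (2.33) and HLA-DRA (2.74) among 9. Both class II genes were low, with CD74 at 15, 2 and 0 counts in HMC-1.1 and 29, 30 and 31 in clone 2.

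Promoters of 3 risen members are shown because interferon-stimulated genes are known to share a promoter element. The core of the interferon-stimulated response element, GAAA and again GAAA after 2 bases of any kind, was searched on both strands from 250 bases before to 50 bases after each RefSeq gene start (GRCh38.p14). It was found in 7 of 7 risen members with a promoter in the table, in 17 of 32 members not called (53.1%), and in 2.84% of 11171 promoters of tested genes. A match is a description of letters and not a site of binding. Capitals mark each match that lies in the stretch shown, with 2 matches in IFI27, 1 in IFI44 and 1 in IFI6, where the whole promoters held 2, 1 and 3. The stretches are IFI27 at chr14:94110603-94110662 and IFI44 at chr1:78649746-78649805, both genes on the plus strand, and IFI6 at chr1:27672314-27672373 on the minus strand. The match in IFI44 and the first in IFI27 are on the opposite strand of the promoter, so that the complement is read there, and the second in IFI27 and that in IFI6 read along it.
IFI27 promoter: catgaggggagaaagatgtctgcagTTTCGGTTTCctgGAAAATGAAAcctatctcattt
IFI44 promoter: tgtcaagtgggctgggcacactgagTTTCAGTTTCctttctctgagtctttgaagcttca
IFI6 promoter: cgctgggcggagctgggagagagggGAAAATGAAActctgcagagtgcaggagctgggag

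The ATF4 and unfolded protein response list held the largest share of called genes among the lists with 20 or more tested members. ATF4 is the transcription factor that raises amino acid synthesis and transport when protein synthesis is under stress. Of 32 members 14 fell and 3 rose, 53.1% of them beside 8.19% of all genes, with a median of -0.39. TRIB3, a pseudokinase induced by ATF4, was at 92.3, 80.7 and 83 FPKM in HMC-1.1 and 40.2, 40.7 and 41.7 FPKM in clone 2 (log2 difference -1.05 ± 0.047, adjusted p = 2.3e-11). DDIT3, the stress factor CHOP, was at 33.7, 28.8 and 32.6 FPKM in HMC-1.1 and 18.5, 17.9 and 17.6 FPKM in clone 2 (log2 difference -0.80 ± 0.075, adjusted p = 2.8e-07). The lines were apart in both, and clone 1 lay on the far side of HMC-1.1, at 171 ± 2.2 and 57.5 ± 2.9 FPKM. ASNS, asparagine synthetase, was at 368, 354 and 364 FPKM in HMC-1.1 and 213, 196 and 213 FPKM in clone 2 (log2 difference -0.76 ± 0.036, adjusted p = 5.1e-11), and DDIT4, an inhibitor of mTORC1, at 271, 258 and 263 FPKM in HMC-1.1 and 134, 129 and 130.3 FPKM in clone 2 (log2 difference -0.999 ± 0.036, adjusted p = 1.7e-12). Every clone 2 library was below every HMC-1.1 library in both.

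Others of the list that fell were STC2 (-1.31), VLDLR (-1.28), the cystine transporter SLC7A11 (-1.14), ATF3 (-1.04), the serine synthesis enzymes PSPH (-0.90) and PSAT1 (-0.67), SESN2 (-0.86), XBP1 (-0.76), the folate enzyme MTHFD2 (-0.68) and CEBPB (-0.62), the last of which was not called without HMC-1.1 replicate 3 or clone 2 replicate 3. ATF4 was at 623, 612 and 624 FPKM in HMC-1.1 and 467, 443 and 431 FPKM in clone 2, a difference of -0.45 under the fold limit. The risen members ATF5, MANF and SDF2L1 (0.64, 0.61 and 0.60, with MANF at 0.57 and not called without clone 2 replicate 1) include a pair that act in folding proteins in the endoplasmic reticulum, MANF and SDF2L1, and the chaperones HSP90B1 and CALR differed by 0.38 and 0.44 without a call. The list's median in clone 1 less HMC-1.1 was 0.073, and in clone 2 less clone 1 it was -0.55. The C/EBP-ATF motif TGATGNAA, searched on both strands, was in 2 of 12 fallen members with a promoter, 2 of 14 not called and 1.61% of all, and the fallen genes with a match are shown, ATF3 at chr1:212565191-212565248 on the plus strand and ASNS at chr7:97872444-97872501 on the minus strand, with the match in capitals.
ATF3 promoter: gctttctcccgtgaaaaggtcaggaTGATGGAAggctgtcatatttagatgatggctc
ASNS promoter: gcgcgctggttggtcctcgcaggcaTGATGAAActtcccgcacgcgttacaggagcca

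Sterol and fatty acid synthesis gave 2 rises among 28, HMGCS1 (0.61) and FASN (0.70), 7.14% called beside 8.19% of all tested genes. By adjusted p alone 22 were higher and none lower (median 0.23), beside 2955 higher and 2790 lower of all 15944 genes tested. The median of the same list in clone 1 less HMC-1.1 was -0.38. Glycolysis and the hypoxia response had 1 rise and 1 fall among 29. No gene was called among 13 mitochondrially encoded genes (median 0.25), 18 of iron and haem (median 0.049) and 20 genes often mutated beside KIT in mastocytosis (median -0.028). The haematopoietic transcription factors gave 3 rises and 1 fall among 45, 8.89% beside 8.19% of all genes: BHLHE41, IKZF2 (0.89) and TCF4 (0.63, on 18q) rose and CEBPB fell. In WNT and Notch signalling 3 rose and 1 fell of 30 (13.3% called).

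**Figure D3:**
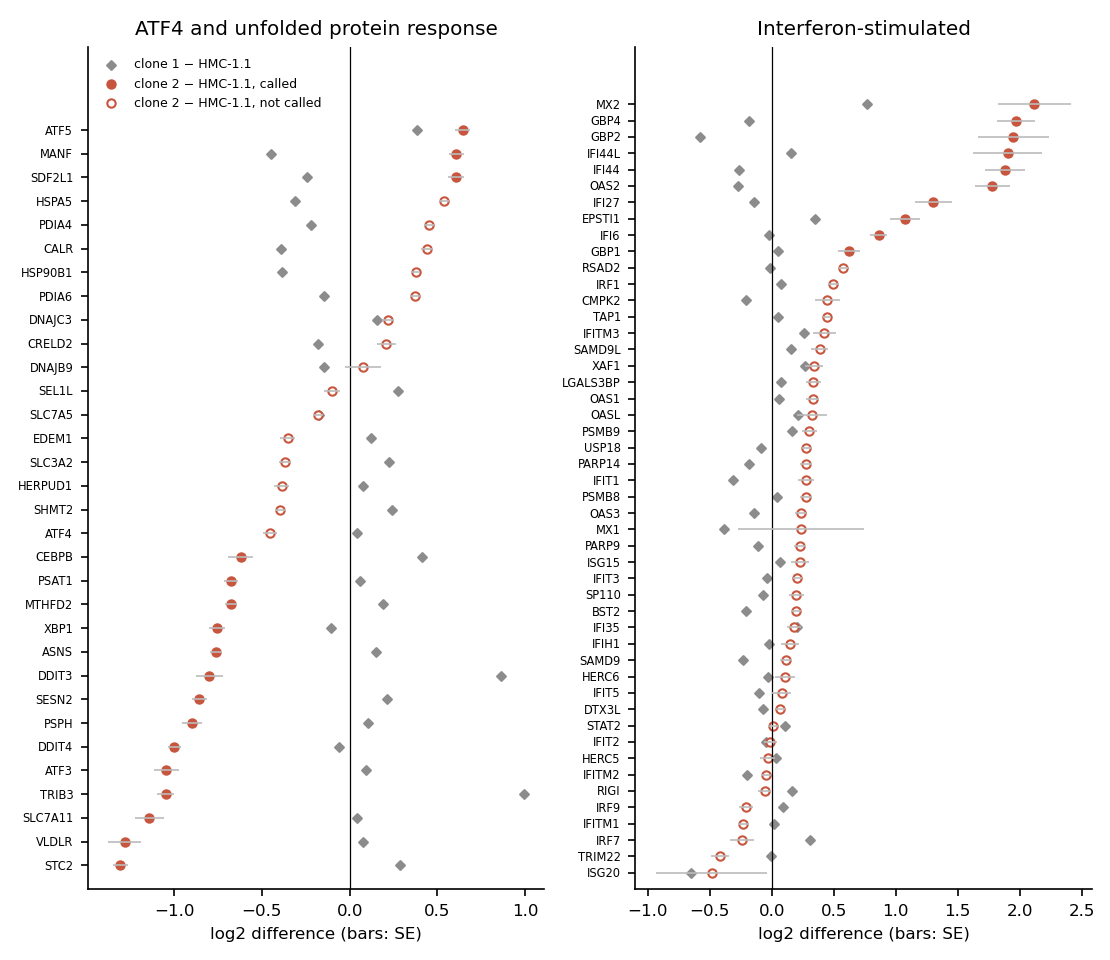
Log2 difference of clone 2 less HMC-1.1 (red circles, filled where called, bars the SE) and of clone 1 less HMC-1.1 (grey diamonds) for tested genes of the ATF4 and unfolded protein response list (left) and of the interferon-stimulated list (right). The 14 fallen genes of the left panel run from CEBPB to STC2 and the 10 risen genes of the right panel from MX2 to GBP1.

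Genes of the mesenchymal transition and of matrix gave 7 rises and 4 falls among 27 (median 0.32), 40.7% called beside 8.19% of all tested genes. VIM, the intermediate filament vimentin, was at 24.5, 24.6 and 23 FPKM in HMC-1.1 and 59.8, 61.4 and 66.4 FPKM in clone 2 (log2 difference 1.40 ± 0.041, adjusted p = 1.1e-13), with 26.6 ± 0.66 FPKM in clone 1. VIM was among the genes chosen with the lines apart. VIM and its antisense RNA VIM-AS1 had a median of 2.71 in HMC-1.2 less HMC-1.1, beside 1.18 in clone 2 less HMC-1.1. MMP2, a gelatinase, was at 10.6, 9.66 and 9.35 FPKM in HMC-1.1 and 2.09, 2.29 and 2.49 FPKM in clone 2 (log2 difference -2.24 ± 0.069, adjusted p = 1.9e-13), lower in every clone 2 library. MMP2 and its neighbour IRX6 had a median of -1.95 in HMC-1.2 less HMC-1.1, beside -1.51 in clone 2 less HMC-1.1. TIMP3, an inhibitor of such proteases, and the plasminogen activators PLAT and PLAU rose by 1.09, 0.69 and 1.33, and the collagens COL6A1, COL6A2 and COL18A1 fell by 0.78, 0.64 and 1.24. SNAI2 was called at no more than 13 counts per library. Integrins and adhesion receptors gave 5 rises and 3 falls among 36 (22.2% called).

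Some adherent-cell genes rested on 1 library. Among the 485 risen genes 20 had clone 2 replicate 3 at more than 2 times both other clone 2 libraries, against 1 and 2 genes for replicates 1 and 2, and 7 of the 20 were still called without it. THBS1, a matrix glycoprotein, was at 6.93, 8.49 and 20.9 CPM in clone 2 and 1.37 to 1.78 CPM in HMC-1.1, with a difference of 2.99 that was 2.33 without the library (edgeR's adjusted p = 3.8e-09). KRT8, a keratin of simple epithelia, was at 0.0877, 0.0769 and 10.6 CPM in clone 2, and its difference was 5.46 with and 0.033 without it. CAV1, which coats caveolae, was at 0.789, 0.846 and 6.78 CPM, and CAVIN1 and the filamin FLNC reached 6.75 and 4.56 CPM there and under 0.5 CPM in the other clone 2 libraries. CAVIN1 and FLNC differed by 2.77 and 3.00 with clone 2 replicate 3 and by -0.23 and -0.43 without it, a change of sign with no call (edgeR's adjusted p = 0.74 and 0.67). Of the 20 genes, SFRP1 and PTPRG were at 2.31 to 2.34 and 1.52 to 1.78 CPM in HMC-1.2, while KRT8, CAVIN1 and FLNC were under 0.5 CPM there. The part that RNA or cells of another kind play in clone 2 replicate 3 was not tested.

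Markers of other cell types were counted as a check on what else the libraries held. Eosinophil and basophil markers summed to 109.9 to 120.2 FPKM in HMC-1.1 and 61.88 to 66.61 FPKM in clone 2, and 3 of 6 fell, 50% beside 8.19% of all tested genes called. PRG2, the eosinophil major basic protein, was at 26.6, 25.5 and 29.1 FPKM in HMC-1.1 and 11.8, 11 and 9.49 FPKM in clone 2 (log2 difference -1.33 ± 0.075, adjusted p = 4.2e-10), and CLC, the Charcot-Leyden crystal protein, at 88.7, 78.6 and 87.4 FPKM in HMC-1.1 and 52.3, 50.1 and 49.3 FPKM in clone 2 (log2 difference -0.73 ± 0.06, adjusted p = 5.4e-08), both lower in every clone 2 library. Fibroblast and epithelial markers summed to 171.9 to 179.8 FPKM and 215.5 to 227.3 FPKM, nearly all of it KRT19 (176 ± 4.2 FPKM in HMC-1.1 and 216 ± 4.9 FPKM in clone 2). Of 2 tested B cell markers 1 was called, lower in clone 2, with list sums of 4.15 to 5.08 FPKM in HMC-1.1 and 2.91 to 2.99 FPKM in clone 2. No tested marker of T and NK cells, monocytes, neutrophils, erythroid cells or megakaryocytes was called. Only 1 marker each was tested for T and NK cells, monocytes and neutrophils, beside 4 for erythroid cells and 3 for megakaryocytes. Their summed levels in HMC-1.1 and clone 2 were 2.26 to 2.47 and 2.2 to 3.41 FPKM for T and NK cells, 1.93 to 2.61 and 1.61 to 1.82 FPKM for monocytes and macrophages, 0.27 to 0.61 and 0.22 to 0.6 FPKM for neutrophils, 10.1 to 15.9 and 9.59 to 15 FPKM for erythroid cells and 879 to 935 and 891 to 934 FPKM for megakaryocytes. The megakaryocyte sum was nearly all ITGA2B, the integrin alpha IIb chain, at 913 ± 30 FPKM in HMC-1.1 and 914 ± 22 FPKM in clone 2. Their part in the results was not tested.

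By position in the genome, 1 chromosome stood out. Chromosome 18 held 121 called genes, 9.26% of all called beside 1.44% of all tested. On its short arm 56 of 73 tested genes fell and 1 rose, with a median of -0.98, and on its long arm 60 of 157 rose and 4 fell, with a median of 0.53. The medians of the other 39 arms with 50 or more tested genes lay between -0.081 and 0.030. The median of 18p less the mean of HMC-1.1 was -1.002, -1.01 and -0.98 in the 3 clone 2 libraries and that of 18q 0.53, 0.54 and 0.57, over genes at 5 CPM or more. In clone 1 less HMC-1.1 the medians of the arms were 0.049 and 0.03, and in HMC-1.2 less HMC-1.1 they were 0.092 and -0.045. Against clone 1, clone 2 stood at -0.97 and 0.55. Number of gene copies was not measured. Outside chromosome 18, 424 genes rose and 761 fell.

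**Figure D4:**
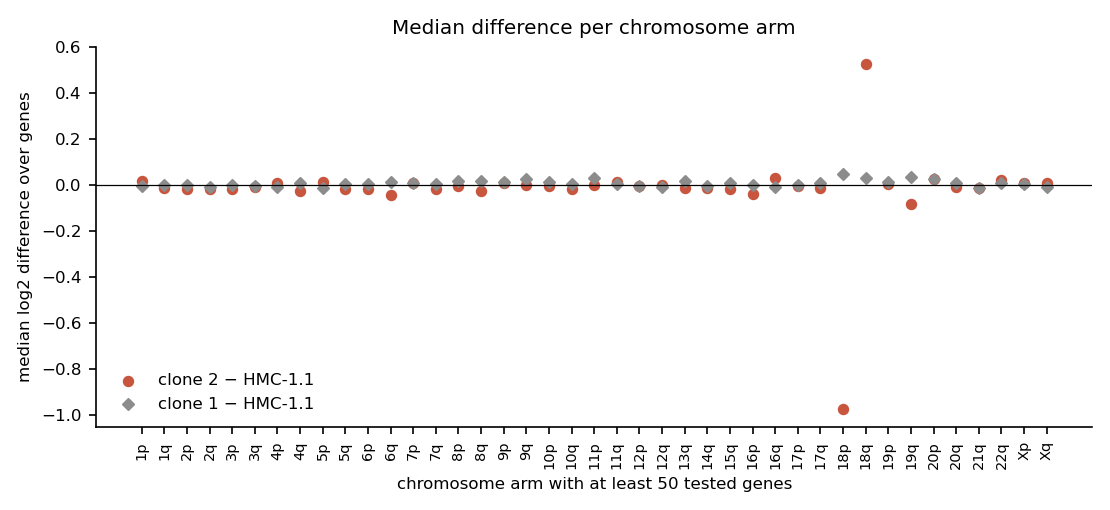
Median log2 difference over tested genes for each chromosome arm with at least 50 of them, for clone 2 less HMC-1.1 (red circles) and clone 1 less HMC-1.1 (grey diamonds). Only 18p and 18q depart from 0 by more than 0.1 in clone 2, and no arm does in clone 1.

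Named genes of the chromosome show the size of the shift. On 18p, VAPA, a membrane protein that tethers the endoplasmic reticulum, went from 381, 382 and 369.7 to 209, 199 and 194 FPKM (log2 difference -0.93 ± 0.028, adjusted p = 1.6e-13), and RAB31, TYMS, YES1 and MYL12A moved with it. On 18q, ATP5F1A, the alpha subunit of ATP synthase, went from 533, 488 and 517 to 824, 807 and 795 FPKM (log2 difference 0.68 ± 0.035, adjusted p = 1.5e-10), and MAPRE2, which binds microtubule ends, from 40.3, 46.5 and 46.1 to 89.96, 86.9 and 83.7 FPKM (log2 difference 0.93 ± 0.031, adjusted p = 5.5e-13). All these libraries were apart. Some 18p genes went far from the arm's median. IMPA2, an inositol phosphatase, fell by 3.401, from 1.97 ± 0.19 to 0.297 ± 0.11 FPKM. MYOM1 (-3.26) and ADCYAP1, an on and off gene given below, also fell far beyond the arm's median. PIEZO2, a mechanosensitive channel near the floor, rose by 2.58, from 0, 0.06 and 0 to 0.28, 0.17 and 0.19 FPKM. PIEZO2 was at 0.697 ± 0.081 FPKM in HMC-1.2, and its call was lost under limma on log2(FPKM + 1). Of the mast cell genes above, RAB27B, BCL2 and TCF4 lie on 18q.

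Outside chromosome 18, 408 of 409 blocks of 25 neighbouring genes at 5 CPM or more had medians within 0.2 of 0. The exception was a block on 1q with a median of -0.67, which held a run of 14 genes, consecutive among those at 5 CPM or more, that all fell, from ASH1L to LMNA (chr1:155335268-156140081, 805 kb). Their differences ranged from -1.21 to -0.63 with a median of -0.94, beside -0.88 in clone 2 less clone 1 and -0.05 in clone 1 less HMC-1.1. The genes on either side, RUSC1 and SLC25A44, differed by 0.37 and 0.25. DAP3, a mitochondrial ribosomal protein, was at 123, 116 and 120.5 FPKM in HMC-1.1 and 67.9, 64.8 and 62.8 FPKM in clone 2, SSR2, of the translocon, at 165, 159 and 169.8 FPKM in HMC-1.1 and 86.9, 88.2 and 81.2 FPKM in clone 2, and LAMTOR2, of the Ragulator complex that anchors mTORC1, at 129.9, 115 and 124 FPKM in HMC-1.1 and 59.1, 59.5 and 50.7 FPKM in clone 2. Every clone 2 library was below every HMC-1.1 library in all 3. LMNA, the nuclear lamin A/C and the end of the run, was at 205, 216 and 218 FPKM in HMC-1.1 and 140.4, 141 and 138 FPKM in clone 2 (log2 difference -0.63), likewise apart. Other runs were short: 28 of 2 genes and 1 of 3, KIF17, HP1BP3 and EIF4G3 on 1p (chr1:20664014-21177285), all higher. HP1BP3, which binds chromatin, was at 56.6, 59.4 and 54.7 FPKM in HMC-1.1 and 108, 103 and 109.8 FPKM in clone 2 (log2 difference 0.93), and the neighbours DDOST and ECE1 differed by 0.06 and 0.10. The same 3 genes had a median of 0.97 in HMC-1.2 less HMC-1.1.

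**Figure D5:**
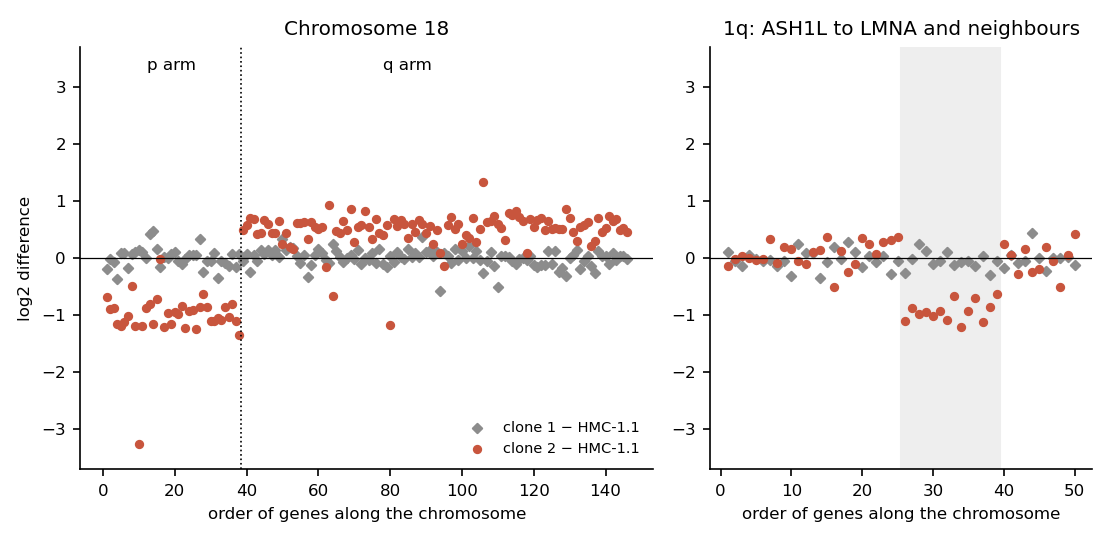
Log2 difference of clone 2 (red circles) and clone 1 (grey diamonds) less HMC-1.1 for genes at 5 CPM or more in order along chromosome 18 (left, with the arms separated by a dotted line) and around the run on 1q (right, shaded). Genes of 18p lie mostly near -1, genes of 18q mostly near 0.5, and 14 neighbouring genes on 1q lie between -1.21 and -0.63.

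Beside KLHL9 on 9p, HACD4, an enzyme of very long chain fatty acid synthesis, fell from 3.09, 3.22 and 2.91 to 1.09, 1.21 and 1.19 FPKM (log2 difference -1.38, edgeR's adjusted p = 8.8e-11), while FOCAD, MTAP and CDKN2A differed by 0.057, 0.045 and 0.016 without a call. In all, 5 genes were at 3 counts or fewer in every library of 1 line and at 1 CPM or more in every library of the other. LINC01446 held 0 counts in each HMC-1.1 library and 53, 80 and 68 in clone 2, at least 21.3-fold higher, and KIAA1217, an actin-associated protein, held 1, 0 and 3 and then 45, 57 and 61, at least 17.3-fold higher. Going the other way were KLHL9, the antisense RNA BAZ2B-AS1 with 72, 57 and 70 counts in HMC-1.1 and 0 in each clone 2 library, at least 22.9-fold lower, and ADCYAP1, the neuropeptide PACAP gene on 18p, with 54, 59 and 57 and then 1, 1 and 2, at least 19.6-fold lower.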

How the data were processed

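The 12 libraries, 3 per line, were made with a stranded mRNA kit. The submitters' processing notes name cutadapt 2.10, STAR 2.5.3, Picard, RSEM 1.3.0, DESeq2 and hg38. The authors deposited RSEM expected counts per gene (7.39% of values not whole) and FPKM, scaled to gene length and library total. The expected counts were rounded and tested with edgeR 4.0.16 (R 4.3.3): TMM scaling (factors 0.974 to 1.02), filterByExpr and a quasi-likelihood fit over 4 groups and 12 libraries (common BCV 0.0442), with Benjamini-Hochberg adjustment over 15944 genes. No pair of replicates agreed within sampling noise (chi-square per degree of freedom 3.96 to 6.58 in the 2 lines compared). Groups came from the sample titles. On counts simulated from the means and spread of these libraries, edgeR recovered 194 of 200 changed genes with 4 false calls among 15668 genes. Of the 200, 99 were changed by 2 fold and the rest by 4 fold, all at 1 CPM or more. Changes under 2 fold and changes in lower genes were not simulated, so these figures do not speak for them. Positions are from Gencode 44 (GRCh38), matched by gene ID for 98.9% of genes, and promoters from RefSeq.

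Genes named are the 10 largest rises and falls called with every library apart and a mean of at least 5 CPM in the higher line, the 8 largest each way at 100 CPM or more, KIT and 15 genes of mast cell interest, called members of the gene lists with up to 4 others per list, the on and off genes, and up to 5 called genes per arm or block named. Genes beyond that rule (neighbours of runs, the runs themselves and genes resting on clone 2 replicate 3) were chosen after their values were seen. The comparison, the lists and the chromosome 18 and library checks were chosen with earlier results of these data known, so no test over a list is given. Alternatives tried were DESeq2 1.42.0, RLE scaling, other filters, a test against 1.5-fold (glmTreat), limma 3.58.1 on log2(FPKM + 1) and log2(FPKM + 0.1), a fit of the 2 lines alone, a term for the resent libraries, a replicate block and each library left out. Pairing by replicate number was not established: the correlations of deviations were 0.149, -0.042 and -0.064 for the same numbers. HMC-1.2 and clone 1 enter the fit and are otherwise given only for reference. The interval for counting error and any number of gene copies were not computed. Some items are not reported here.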

Additional observations from a re-analysis of the deposited data

Results flagged for a closer look

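Clone 2 and clone 1 are both HMC-1.3 clones, and each was set against the same HMC-1.1 libraries. The genes below were singled out because their difference from HMC-1.1 was not the same in the clones, by a direct test of clone 2 against clone 1 in edgeR with Benjamini-Hochberg adjustment and a fold over 1.5. They were picked from the largest differences between clone 2 and HMC-1.1, so the comparison shares clone 2 with the choice of genes. Values are log2 of clone 2 over clone 1.

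The genes higher in clone 2 than in clone 1 were KIF17 6.27, LINC02864 5.61, OVAAL 3.6, GZMB 3.14, GLI2 2.87, THBS1 2.79, GRAP2 2.65, GIPC3 2.49, VGF 2.42, ANXA1 2.1, BHLHE41 2.0, IGFBP2 1.77, PLA2G2A 1.7, VIM 1.25, LIF 1.23, GPRC5C 1.22 and EIF4G3 1.15. The genes lower in clone 2 than in clone 1 were NPIPB10P -7.23, KRT86 -4.19, KRT81 -3.94, MYOM1 -3.41, TEX19 -3.27, FCER1G -3.21, PTPRE -3.03, TMEM132D-AS1 -2.96, LINC03040 -2.51, MYL12A -1.29, RCOR1 -1.28, RAB31 -1.21, SH3PXD2B -1.18, ARHGEF2 -1.14, SIGLEC8 -1.03, TRANK1 -0.94 and YES1 -0.79. The keratins KRT81 and KRT86 and the pseudogene NPIPB10P may share reads with close copies. KLHL9, at 0, 0 and 2 counts in clone 2, is given by its counts alone. LINC02864 lies on 18q and MYOM1, RAB31, MYL12A and YES1 on 18p, the arms that differed as a whole in clone 2, and ARHGEF2 lies in the run of 14 falling genes on 1q. The parent line HMC-1.2 is not part of this comparison, and its levels were mixed. KIF17 and EIF4G3 stood near clone 2 there, at 30.5 ± 1.4 and 31.6 ± 0.9 FPKM, and PLA2G2A below HMC-1.1, at 19.9 ± 1.15 FPKM.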

How the results depend on the processing

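Of the counts, arm medians and called genes named, FLNC and CAVIN1 changed direction under 1 of the 16 alternatives, to -0.43 and -0.23 without clone 2 replicate 3, and the others kept theirs. Leaving out other libraries gave up to 3.55 for FLNC and 3.302 for CAVIN1. KIT, which was not called, ran from -0.034 to 0.0016. Counts of called genes stayed within 1.5 times under most of them, with 1215 under DESeq2, 1301 under RLE scaling, 1522 without a filter, 1270 with the filter at 0.5 CPM, 1268 with a term for the resent libraries, 1241 with only the compared lines fitted and 1128 under limma on log2(FPKM + 0.1), beside 1306. They fell under glmTreat, which tests against 1.5-fold instead of 0, to 552 genes (222 higher, 330 lower, 79 in the lists) and under limma on log2(FPKM + 1), which shrinks differences of low genes, to 566 (200 higher, 366 lower, 83 in the lists), beside 485, 821 and 129. Clone 2 against clone 1 gave 837 genes under glmTreat beside 2013. The median of 18p was -0.79 and -0.91 under limma with pseudocounts of 1 and 0.1, and that of 18q was 0.44 with 1.

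Leaving out 1 library at a time gave 1189 to 1279 called genes, 447 to 464 higher and 726 to 826 lower, 126 to 134 in the lists, 1866 to 2025 against clone 1, 5 to 7 on and off genes, and medians of -1.001 to -0.954 on 18p and 0.52 to 0.55 on 18q, the last without HMC-1.1 replicate 1. A fit with the replicate block gave 1291 called genes (477 higher, 814 lower), 129 in the lists and 1994 against clone 1. Same numbers were not shown to pair libraries, and the block changed no call of a named gene but FLNC (2.41, edgeR's adjusted p = 0.054). Of 202 named genes called, 118 kept the call in all 16 alternatives, and 60 more lost it under glmTreat or limma and nowhere else. Depth limited genes at a few counts, such as CXCL10, IDO1 and SNAI2.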

Other observations

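Receptors of the TNF family were called in both directions: TNFRSF4, or OX40, TNFRSF9, TNFRSF1B, TNFRSF10C and TNFRSF21 differed by 0.89, 0.98, -0.93, -1.29 and 0.96 on the log2 scale. TNFRSF9, or 4-1BB, was at 0.16, 0.14 and 0.18 FPKM in HMC-1.1 and 0.3, 0.57 and 0.3 FPKM in clone 2, and TNFRSF1B, the second TNF receptor, at 0.2, 0.32 and 0.47 FPKM in HMC-1.1 and 0.2, 0.13 and 0.19 FPKM in clone 2, where the lines met at 0.2 FPKM. TNF itself fell, as given above.

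Adhesion receptors changed in both directions as well. ITGB2, the beta chain of leukocyte integrins, was at 0.84 ± 0.21 FPKM in HMC-1.1 and 0.407 ± 0.17 FPKM in clone 2, and CADM1, which binds mast cells to other cells, was at 3.03 ± 0.14 FPKM in HMC-1.1 and 5.22 ± 0.46 FPKM in clone 2. NCAM1 differed by 3.31, and NCAM1 with its neighbour DRD2 had a median of 3.43 in HMC-1.2 less HMC-1.1. ITGB3 differed by 2.49 and was not called under 4 of 16 other settings, among them without HMC-1.1 replicate 1 (1.93) or clone 2 replicate 1 (2.31). ITGA9 differed by -1.29 and was not called under 9, among them without HMC-1.1 replicate 1 or 2 (-1.19 and -1.01) or clone 2 replicate 1 or 3 (-0.89 and -1.32). ITGA6 and ALCAM were at 2.45 and 2.47 CPM in clone 2 replicate 3 and under 1 CPM in the other clone 2 libraries, and without that library ITGA6 was called and ALCAM was not, nor was ALCAM without HMC-1.1 replicate 2 or 3. In HMC-1.2, ITGA6 was at 1.38 to 2.26 CPM and ALCAM at 0.966 to 1.17 CPM. Of the WNT and Notch genes, WNT11, ROR2, LRP5 and JAG1 differed by 1.76, 0.82, -0.66 and 0.60, and JAG1 was not called without HMC-1.1 replicate 2 or clone 2 replicate 2.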
